A study of Homo sapiens with 9 samples.

Results

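The genes described here encode extracellular matrix glycoproteins and proteoglycans other than collagens. The set holds 44 genes of the 33264 in the deposited table, picked as a list of symbols with earlier results of these data known, and each was found by its Ensembl identifier. The shares of these genes that passed a test are therefore descriptions of this list. They fall into 5 roles: 10 matricellular proteins, 13 basement membrane components, 13 elastic fibre and microfibril components, 5 chondroitin sulfate or small leucine-rich proteoglycans, and 3 other matrix glycoproteins.

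Messenger RNA was measured in U87MG, an established human glioblastoma cell line, by poly-A RNA sequencing with strand-specific libraries. R50 is a clonal line of it kept in 50 µM temozolomide (TMZ), a DNA-alkylating drug. R50_OFF is a clonal line also raised in 50 µM TMZ, which was removed after 2 months of treatment, and parent is untreated U87MG. All were grown in medium with bovine serum. Each of these 3 groups has 3 libraries. Each resistant line stands for 1 clonal line, and nothing says that the libraries of a group came from separate cultures, so p-values here speak to the spread among these 9 libraries only, and that spread may be technical.

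The extracellular matrix is a secreted network that holds cells in place and carries signals to them. Laminins, nidogens and the heparan sulfate proteoglycans perlecan and agrin build basement membranes, in which laminin is a trimer of an alpha, a beta and a gamma chain. Fibrillins, fibulins, elastin and latent TGF-beta binding proteins build microfibrils and elastic fibres, which also store latent TGF-beta. Matricellular proteins such as thrombospondins, tenascin and osteopontin tune adhesion more than they bear load. Glioblastoma cells migrate along brain matrix and vessel basement membranes, and secrete tenascin-C, versican and SPARC themselves.

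Promoter windows are shown for THBS1, which was higher in both resistant lines than in parent, and for paralogous pairs of which one member was higher and the other lower in R50 than in parent: the fibrillins FBN1 and FBN2, and the laminin beta chains LAMB1 and LAMB2. The windows come from the RefSeq promoter table on GRCh38.p14 and run 5′ to 3′ on the gene's strand. They hold the 250 bases before the RefSeq start, shortened to 198 for LAMB1 and to 182 for LAMB2 where a GENCODE exon of the gene reaches into them. The FBN1 and FBN2 windows hold no such exon but lie inside the spans given below for these genes, as GENCODE starts both genes further upstream. Capitals mark matches on either strand to the TATA box (TATAAA), the GC box (GGGCGG), the AP-1 element (TGANTCA), the TEAD element (GGAATG) and the SMAD CAGA box (CAGACA), and matches may overlap.
THBS1 (chr15:39580829-39581078, plus strand): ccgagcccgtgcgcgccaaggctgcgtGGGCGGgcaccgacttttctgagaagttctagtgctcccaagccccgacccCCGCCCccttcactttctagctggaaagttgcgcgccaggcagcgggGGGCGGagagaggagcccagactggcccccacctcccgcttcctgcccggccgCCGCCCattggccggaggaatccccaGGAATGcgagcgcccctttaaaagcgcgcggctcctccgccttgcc
FBN1 (chr15:48644971-48645220, minus strand): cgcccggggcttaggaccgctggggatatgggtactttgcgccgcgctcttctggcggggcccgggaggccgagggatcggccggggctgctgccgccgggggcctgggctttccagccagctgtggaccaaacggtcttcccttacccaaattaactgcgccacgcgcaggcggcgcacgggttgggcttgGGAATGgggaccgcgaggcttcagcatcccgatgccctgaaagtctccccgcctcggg
FBN2 (chr5:128538246-128538495, minus strand): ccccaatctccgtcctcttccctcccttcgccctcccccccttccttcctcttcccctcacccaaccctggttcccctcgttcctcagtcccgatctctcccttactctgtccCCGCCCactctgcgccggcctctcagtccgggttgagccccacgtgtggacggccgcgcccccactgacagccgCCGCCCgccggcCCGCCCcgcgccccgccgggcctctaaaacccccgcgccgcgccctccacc
LAMB1 (chr7:108003214-108003411, minus strand): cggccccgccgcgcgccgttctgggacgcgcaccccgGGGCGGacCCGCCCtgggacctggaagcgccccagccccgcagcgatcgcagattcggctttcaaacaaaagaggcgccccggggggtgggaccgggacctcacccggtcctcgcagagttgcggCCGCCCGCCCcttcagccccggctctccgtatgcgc
LAMB2 (chr3:49133119-49133300, minus strand): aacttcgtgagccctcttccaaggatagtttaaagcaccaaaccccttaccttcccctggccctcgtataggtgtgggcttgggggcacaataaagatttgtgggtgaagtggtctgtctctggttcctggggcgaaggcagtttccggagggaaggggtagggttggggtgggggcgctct
The THBS1 window held 4 GC boxes and 1 TEAD element, which starts 46 bases before the start of the gene. FBN1 had 1 TEAD element and no GC box, while FBN2 had 3 GC boxes. LAMB1 had 4 GC boxes in its shortened window. The shortened LAMB2 window held none of these motifs, but its full window holds a GC box and is counted as such below, so the pair does not differ in having one. A promoter entry was found for 34 of the 44 genes. Of their full 250-base windows, 24 (70.6%) held a GC box, against 42.3% of all 27305 promoter windows of that length. The median GC content was 66.2% for the matrix genes and 58% for all promoters. AP-1 elements were in 4 windows (11.8%, against 6.6% of all), TEAD elements in 6 (17.6%, against 11.9%), CAGA boxes in 7 (20.6%, against 13.6%) and TATA boxes in 4 (11.8%, against 11.1%). A match describes letters in the window and is not evidence of a bound factor.

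Values below are the deposited ones: reads divided by a library factor and by a transcript length in kilobases. Each library held 28.7 to 35.8 M reads as traced back from the values, and 22904 to 24892 genes lay above 0. The matrix genes took 0.684% to 0.731% of the reads in R50 libraries, 0.653% to 0.677% in R50_OFF libraries and 0.763% to 0.814% in parent libraries. TGFBI alone supplied a large part of these reads. It had 101581 to 106150 of the 209996 to 222170 matrix gene reads per library in R50. In R50_OFF it had 73620 to 89802 of 187463 to 238614, and in parent 44305 to 62460 of 228664 to 282908. R50 replicate 2 differed from the other R50 libraries more than any other replicate pair did, with a chi-square per gene of 15 and 18.08, against 2.374 to 6.928 in the other pairs. Without that library the test called 34 of the matrix genes in R50 against parent, the same count as with it. Of 6 astrocyte markers, 5 were in the table, and GFAP lay between 0.938 and 8.18 in all 9 libraries and S100B at 1.78 or below. SLC1A3, a glutamate transporter, was at 5296 to 5745 in R50, 5309 to 5689 in R50_OFF and 2849.5 to 3062 in parent, and made up most of the summed astrocyte level of 5303 to 5755 in R50, 5314 to 5692 in R50_OFF and 2889 to 3107 in parent. ALDH1L1 was at 1.90 or below in the resistant lines and at 29.9 to 46.3 in parent. VIM and CD44, mesenchymal markers, were high in all libraries. The summed level of 6 pericyte and fibroblast markers was 29885 to 34847 in R50, 12354 to 12824 in R50_OFF and 17458 to 20859 in parent, most of it from COL1A1. LUM and DCN are among these 6 markers. PDGFRB, another of them, was at 555 to 652 in R50, 619 to 690 in R50_OFF and 1062 to 1280 in parent. ACTA2 and RGS5 were highest in R50. The sum of 5 epithelial markers was 815 to 1020.2 in R50, 716 to 818 in R50_OFF and 187 to 216 in parent, most of it KRT8. KRT18 was at 60.3 to 80.4 in R50, 102 to 111 in R50_OFF and 3.99 to 10.4 in parent. EPCAM ran against them in R50, at 5.84 to 13.9, with 24.5 to 35.9 in R50_OFF and 26.7 to 39.1 in parent. KRT19 reached at most 12.9 and CDH1 at most 4.00 in any library. The sum of 5 endothelial markers was 255 to 303 in R50, 154 to 169 in R50_OFF and 372 to 403 in parent, most of it PECAM1. Among them CDH5 was at 10.7 to 27.9, against at most 0.536 in R50_OFF and 1.75 in parent, whereas TEK was at 2.83 to 6.22 in R50, 0.276 to 1.32 in R50_OFF and 17.5 to 19.6 in parent. KDR was at most 0.260 in R50, 11.5 to 15.4 in R50_OFF and 6.24 to 11.7 in parent. The part of these markers in the results was not tested. In such bulk RNA, fewer cells of a type and less RNA per cell cannot be told apart.

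The comparisons asked how matrix transcripts differed between R50, R50_OFF and parent. As each resistant line is clonal, effects of the drug or its removal and differences between clones cannot be told apart here. Of the 44 genes, 38 reached a value of 10 in 3 or more libraries and were tested along with all other such genes. In R50 against parent, 17 were higher and 17 lower, so 89.5% passed limma's adjusted p of 0.05, against 63.3% of all 16456 genes tested, 31.6% higher and 31.7% lower. In R50_OFF against parent, 11 were higher and 16 lower, or 71.1%, against 52.0% of all genes, 26.3% higher and 25.7% lower. In R50_OFF against R50, 15 were higher and 18 lower, or 86.8%, against 59.5% of all genes, 30.2% higher and 29.3% lower. Changes of at least 2-fold were called in 52.6% of the tested matrix genes and 21.6% of all genes in R50 against parent. These shares were 34.2% and 12.6% in R50_OFF against parent, and 44.7% and 16.7% in R50_OFF against R50. The median size of the log2 change was 1.10 in R50 against parent, beside 0.43 for all genes. It was 0.72 beside 0.33 in R50_OFF against parent, and 0.69 beside 0.39 in R50_OFF against R50. In R50 against parent, the 3 libraries of one group lay beyond those of the other in all 34 called matrix genes and in no uncalled one. In R50_OFF against parent this held for all 27 called and for LAMA2, LUM and LTBP2, which were not called. In R50_OFF against R50 it held for 32 of the 33 called, all but THBS1, and for MATN2, which was not called. Such separation largely comes with a call, so it adds no support to the calls. Of all genes, called or not, the libraries were apart in this way in 68.2% in R50 against parent, 62.8% in R50_OFF against parent and 63.4% in R50_OFF against R50.

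Both comparisons with parent use the same 3 parent libraries, so their values are given side by side and not as independent evidence. Against parent, 10 genes were higher in both R50 and R50_OFF: THBS1, THBS4, TGFBI, LAMA1, NID2, FBN2, EFEMP1, FBLN1, FBLN5 and FMOD. Another 12 were lower in both: THBS2, TNC, SPP1, SPOCK1, LAMA3, LAMA5, LAMB1, LAMC1, FBN1, LTBP1, VCAN and ECM1. The laminin chains LAMA4, LAMB2 and LAMB3 were higher in R50 and lower in R50_OFF. ELN, EFEMP2, FBLN2 and AGRN passed the threshold as higher in R50 alone, and THBS3, LAMA2, SPARC, LUM and LTBP2 as lower in R50 alone, though some alternatives also called LAMA2 and LTBP2 as higher and LUM and ELN as lower in R50_OFF against parent. MFAP2 was called as higher and HSPG2 as lower in R50_OFF alone. MATN2 and EMILIN1 passed in neither comparison.

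**Figure D1:**
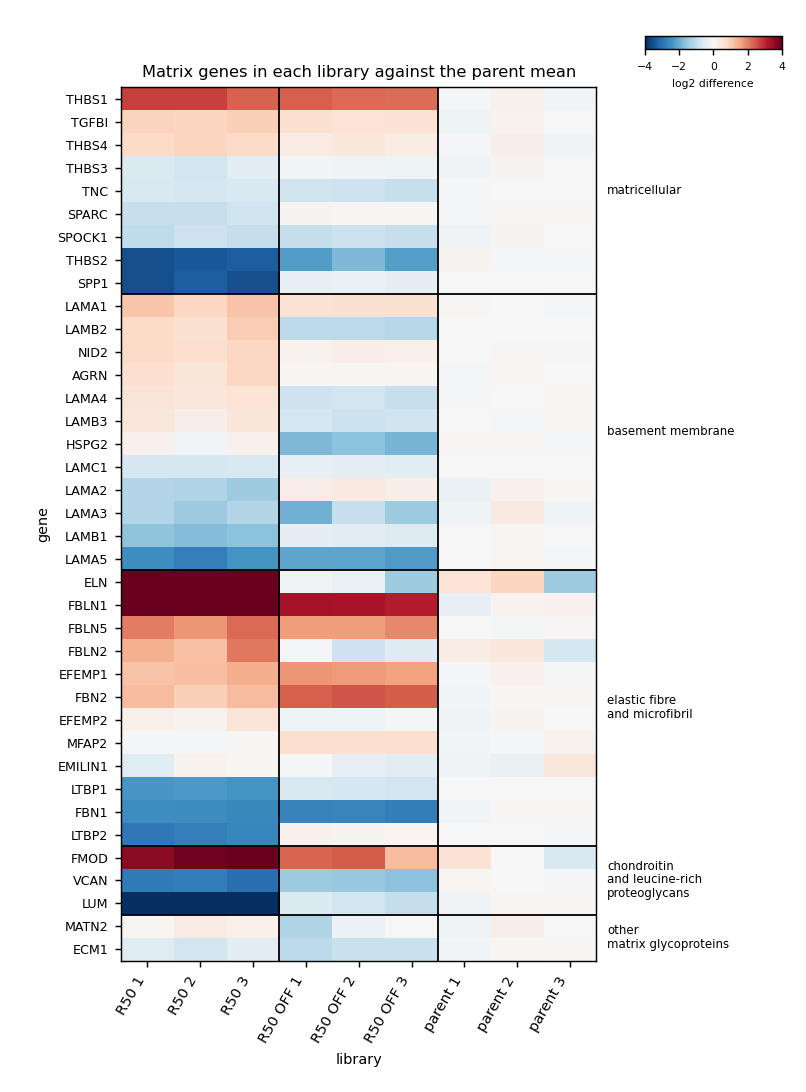
Log2 difference of each tested matrix gene (rows, grouped by role) in each of the 9 libraries (columns) from the mean of parent, on the log2(value + 1) scale. Colours run from −4 to 4 and saturate beyond that, as for ELN and FBLN1 in R50 (red, higher) and LUM in R50 (blue, lower), and the 3 libraries of a group look alike in most rows.

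Among matricellular genes, THBS1 and TGFBI were higher in both resistant lines, while THBS2, osteopontin (SPP1), tenascin-C (TNC) and testican-1 (SPOCK1) were lower in both. Of 9 tested genes of this role, 3 were higher and 6 lower in R50 against parent, 3 higher and 4 lower in R50_OFF against parent, and 4 higher and 4 lower in R50_OFF against R50. In these comparisons in turn, 100%, 77.8% and 88.9% of them were called, against 63.3%, 52.0% and 59.5% of all tested genes. THBS1 (chr15:39581079-39599466 on hg38) encodes thrombospondin-1, an anti-angiogenic glycoprotein that can activate latent TGF-beta. It had 8844, 8827 and 6848 in the R50 libraries, 6963, 6481 and 6259 in the R50_OFF libraries, and 1271, 1506 and 1236 in the parent libraries. Every library of both resistant lines lay far above every parent library, while R50 replicate 3 lay within the range of R50_OFF. The log2 change against parent was 2.61 (SE 0.104, limma adjusted p = 4.94e-09) in R50 and 2.30 (SE 0.104, adjusted p = 3.91e-08) in R50_OFF. In R50_OFF against R50 it fell by 0.31, with an adjusted p of 0.0255, and this call was lost in turn without R50 replicate 1 (0.0968), R50 replicate 2 (0.081), R50_OFF replicate 2 (0.0645) or R50_OFF replicate 3 (0.0835).

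THBS2 (chr6:169215780-169254050), which encodes thrombospondin-2, the closest relative of thrombospondin-1, moved the other way. Its values were 112, 123 and 131 in R50, 276, 371 and 280.5 in R50_OFF, and 1383, 1245 and 1264 in parent. The 3 groups were fully apart, with R50_OFF between R50 and parent. THBS2 fell by 3.40 on the log2 scale in R50 (SE 0.113, limma adjusted p = 1.34e-09) and fell by 2.08 in R50_OFF (adjusted p = 1.58e-07), and was 1.32 higher in R50_OFF than in R50 (adjusted p = 3e-06). THBS3, a pentameric thrombospondin, averaged 379 ± 37.4 in R50, 514 ± 7.21 in R50_OFF and 567 ± 51.5 in parent (SD, n = 3 each), and passed the test in R50 with a log2 change of −0.58. THBS4, also pentameric, averaged 442 ± 15.4 in R50, 322 ± 19.3 in R50_OFF and 253 ± 38.1 in parent. It was 0.81 higher in R50 and 0.36 higher in R50_OFF against parent, and the second call was lost without parent replicate 3 (adjusted p = 0.0533).

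To set levels of different genes side by side, reads were divided by the length of each gene's canonical transcript. The deposited length is a median over annotated transcripts, and the canonical length was 1.02 to 20.3 times as long, with a median of 4.79. Which transcripts these cells express was not measured, so shares and ranks across genes depend on the length used. On that scale THBS1 made up 64.5 ± 4.64% of the summed level of the 4 thrombospondin genes in R50, 53.9 ± 1.51% in R50_OFF and 14.3 ± 0.84% in parent. THBS2 held 2.12 ± 0.315% in R50, 5.51 ± 0.921% in R50_OFF and 30.3 ± 3.05% in parent. The summed level itself was 892 ± 65.5 in R50, 861 ± 29.8 in R50_OFF and 659.6 ± 34.8 in parent. On the deposited lengths THBS1 held 89.5% in R50, 85.1% in R50_OFF and 38.6% in parent, of a sum of 9116 in R50, 7713 in R50_OFF and 3455 in parent. On both scales the THBS1 share was higher and the THBS2 share lower in every library of the resistant lines than in every parent library, where the smallest p that an exact permutation test of 3 against 3 can give is 0.1.

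SPP1 (chr4:87975667-87983532) encodes osteopontin, a secreted phosphoprotein that binds integrins and CD44. GENCODE places an antisense RNA gene across its first exon, and the reads of both cannot be told apart. Its values were 805, 939 and 814 in R50, 7352, 7675 and 7285 in R50_OFF, and 9452, 9123 and 9362 in parent. R50 lay far below the others, and R50_OFF lay close below parent without overlap. SPP1 fell by 3.45 on the log2 scale in R50 (SE 0.0591, limma adjusted p = 2.65e-11) and fell by 0.32 in R50_OFF (adjusted p = 0.000887) against parent. In R50_OFF it was 3.13 higher than in R50 (adjusted p = 9.24e-11). SPARC (chr5:151661096-151686975), which encodes a collagen-binding glycoprotein, was lower in R50 as well, at 15701, 15622 and 16972, against 31942, 30591 and 30924 in R50_OFF and 27987, 30602 and 30447 in parent. Here R50_OFF and parent overlapped, and their difference of 0.07 on the log2 scale did not pass the test (adjusted p = 0.271). SPARC fell by 0.88 in R50 against parent (SE 0.0509, adjusted p = 8.8e-08) and was 0.95 higher in R50_OFF than in R50 (adjusted p = 9.17e-08).

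TGFBI, which encodes a TGF-beta-induced adhesion protein, had the highest level per kilobase of canonical transcript of all 44 genes in each group. Its deposited values were 95314, 92376 and 98949 in R50, 80574, 75044 and 77397 in R50_OFF, and 46051, 56786 and 51962 in parent. All 3 groups were apart, with R50 highest. TGFBI was 0.89 higher on the log2 scale in R50 (SE 0.0708, limma adjusted p = 1.07e-06) and 0.59 higher in R50_OFF (adjusted p = 4.48e-05) than in parent, and it fell by 0.30 in R50_OFF against R50 (adjusted p = 0.00396). SPOCK1, which encodes the testican-1 proteoglycan, had 6087, 6811 and 6301 in R50, 6363, 6679 and 6493 in R50_OFF, and 11136, 13271 and 12279.5 in parent. The resistant lines overlapped and both lay below parent, with log2 changes of −0.93 in R50 and −0.91 in R50_OFF (adjusted p = 3.97e-07 and 1.19e-06). TNC, which encodes tenascin-C, a hexameric glycoprotein abundant around glioblastoma, averaged 23835 ± 876 in R50, 20587 ± 925 in R50_OFF and 37243 ± 1208 in parent (SD, n = 3 each). It fell by 0.64 in R50 and fell by 0.86 in R50_OFF against parent. POSTN, which encodes periostin, did not reach the minimum for the test: it had 6, 5 and 8 reads in R50 and 0 in the other 6 libraries, where a count of 0 allows up to 3 reads per library.

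**Figure D2:**
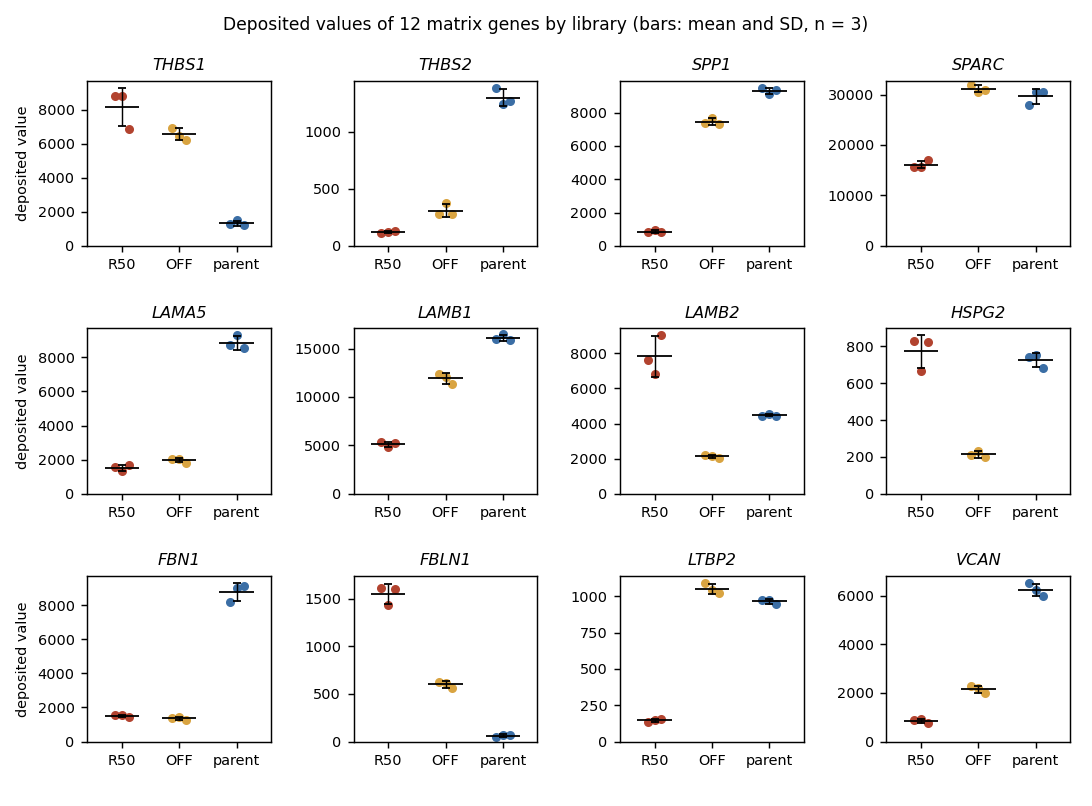
Deposited values (vertical axes, linear from 0) of 12 matrix genes in each library, with R50 left, R50_OFF (OFF) in the middle and parent right; points are libraries and bars give the mean and SD (n = 3). THBS1 and FBLN1 are highest in R50, SPP1, SPARC, LAMB1 and LTBP2 are lowest there, and HSPG2 and LAMB2 are lowest in R50_OFF.

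Basement membrane genes split by chain. LAMA5, LAMB1 and LAMC1, chains of laminin-511, were lower in both resistant lines, LAMA1 and nidogen-2 (NID2) were higher in both, and LAMA4, LAMB2 and LAMB3 were higher in R50 but lower in R50_OFF than in parent. Of 12 tested genes of this role, 6 were higher and 5 lower in R50 against parent, 2 higher and 8 lower in R50_OFF against parent, and 4 higher and 7 lower in R50_OFF against R50. The shares called were 91.7%, 83.3% and 91.7% in turn, against 63.3%, 52.0% and 59.5% of all tested genes. LAMA5 (chr20:62307955-62367312) encodes laminin alpha-5. It had 1566, 1323 and 1676 in R50, 2052, 2044 and 1821 in R50_OFF, and 8733, 9302 and 8528 in parent. Both resistant lines lay far below parent, and R50 lay below R50_OFF. LAMA5 fell by 2.55 on the log2 scale in R50 (SE 0.0835, limma adjusted p = 1.16e-09) and fell by 2.17 in R50_OFF (adjusted p = 1.38e-08), and was 0.38 higher in R50_OFF than in R50 (adjusted p = 0.00259).

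LAMB1 (chr7:107923799-108003213), the laminin beta-1 chain whose promoter window is printed above, had 5308, 4799.9 and 5213 in R50, 12352, 12107 and 11314 in R50_OFF, and 15948, 16491 and 15854 in parent. The groups were fully apart, with R50_OFF nearer to parent. LAMB1 fell by 1.66 in R50 (SE 0.051, limma adjusted p = 7.44e-10) and fell by 0.43 in R50_OFF (adjusted p = 4.11e-05), and was 1.22 higher in R50_OFF than in R50 (adjusted p = 1.6e-08). LAMC1, the gamma-1 chain shared by most laminins, averaged 8357 ± 232 in R50, 10155 ± 348 in R50_OFF and 13313 ± 62.8 in parent. It fell by 0.67 in R50 and fell by 0.39 in R50_OFF, and its rise of 0.28 in R50_OFF against R50 was lost after quantile normalization (adjusted p = 0.0573).

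LAMB2 (chr3:49121114-49133118), the beta-2 chain of mature vessel and synaptic laminins, ran in another direction. It had 7602, 6803 and 9072 in R50, 2178, 2167 and 2032 in R50_OFF, and 4431, 4541 and 4449 in parent. Every R50 library lay above parent and every R50_OFF library below it. The log2 change was 0.80 in R50 (SE 0.0851, limma adjusted p = 1.14e-05) and −1.07 in R50_OFF (adjusted p = 2.42e-06) against parent, and −1.87 in R50_OFF against R50 (adjusted p = 2.92e-08). LAMA4, an alpha chain of vessel laminins on chromosome 6, followed the same order, at 2188, 2086 and 2231 in R50, 869.5, 902 and 798 in R50_OFF, and 1482, 1500.2 and 1606 in parent. So did LAMB3, a chain of the epithelial laminin-332, at 1584, 1413 and 1612 in R50, 706, 646 and 664 in R50_OFF, and 1146, 1119.8 and 1225 in parent. In R50_OFF against R50, LAMA4 fell by 1.34 (adjusted p = 2.26e-08) and LAMB3 fell by 1.19 (adjusted p = 1.15e-07). LAMA3, the alpha partner of LAMB3 in laminin-332, was low throughout, at 12.3, 9.83 and 12.4 in R50, 6.85, 14.7 and 10.2 in R50_OFF, and 25.4, 37.3 and 25.5 in parent. Both resistant lines lay below parent and overlapped each other. LAMA3 changed by −1.27 in R50 and −1.43 in R50_OFF against parent (adjusted p = 0.00395 and 0.00254).

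On the canonical-length scale the make-up of the alpha chains differed between the groups. LAMA5 held 20.6 ± 0.974% of the summed alpha-chain level in R50, 36.0 ± 1.14% in R50_OFF and 69.0 ± 1.17% in parent. LAMA4 held 46.7 ± 1.92% in R50, 24.9 ± 0.588% in R50_OFF and 18.9 ± 1.18% in parent, so it was the leading alpha chain in R50 while LAMA5 led in the other groups. LAMA1, an embryonic alpha chain, held 30.1 ± 1.25% in R50, 30.1 ± 1.59% in R50_OFF and 8.46 ± 0.405% in parent. The sum over the 5 alpha chains was 439.6 ± 32.3 in R50, 325 ± 12.7 in R50_OFF and 764 ± 24.0 in parent. Among the beta chains, LAMB1 held 21.7 ± 0.958% in R50, 62.9 ± 0.851% in R50_OFF and 55.6 ± 1.21% in parent, and LAMB3 held 51.2 ± 1.02% in R50, 27.9 ± 0.981% in R50_OFF and 31.6 ± 1.36% in parent. On the deposited lengths the order of chains in a group can differ: there LAMB3 held 10.6% of the beta chains in R50, and LAMB2 held 53.9%.

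**Figure D3:**
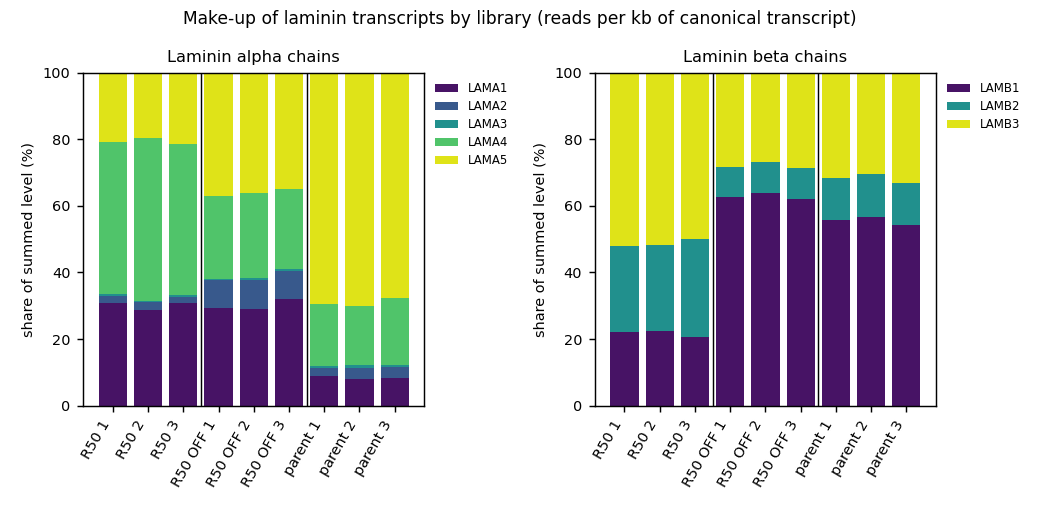
Share (vertical axis, %) of each laminin alpha chain (left) and beta chain (right) in the summed level of its family in each of the 9 libraries (horizontal axis), from reads per kilobase of canonical transcript. LAMA5 has its lowest share of the alpha chains in R50 (19.5% to 21.5%) and its highest in parent (67.7% to 70.0%), and LAMB1 shrinks to 20.6% to 22.3% of the beta chains in R50.

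LAMA1 averaged 555 ± 62.4 in R50, 409 ± 6.0 in R50_OFF and 269.9 ± 9.19 in parent in deposited values, 1.03 higher on the log2 scale in R50 (limma adjusted p = 1.25e-06) and 0.60 higher in R50_OFF (0.000138) than in parent. LAMA2, the merosin alpha chain of muscle and nerve, had 169, 166 and 141 in R50, 461, 487 and 445 in R50_OFF, and 318, 429 and 405 in parent. R50 lay below both other groups. LAMA2 fell by 1.26 in R50 against parent (SE 0.116, adjusted p = 3.51e-06) and was 1.55 higher in R50_OFF than in R50 (adjusted p = 1.13e-06). Its change of 0.28 in R50_OFF against parent did not pass (adjusted p = 0.0629), although those libraries did not overlap, and passed without parent replicate 2 (0.0346) or R50 replicate 3 (0.0497).

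Of the other basement membrane components, HSPG2 (chr1:21822244-21937310) encodes perlecan, a large heparan sulfate proteoglycan. It had 827, 667 and 824 in R50, 209, 233 and 198 in R50_OFF, and 745, 755 and 681 in parent. R50 and parent overlapped, and R50_OFF lay well below both. HSPG2 fell by 1.77 in R50_OFF against parent (SE 0.0961, limma adjusted p = 1.56e-07) and fell by 1.85 against R50 (adjusted p = 7.62e-08), whereas its change of 0.08 in R50 did not pass (adjusted p = 0.475). AGRN, which encodes agrin, the heparan sulfate proteoglycan of neuromuscular junctions and the blood-brain barrier, averaged 5025 ± 578 in R50, 3310.0 ± 20.9 in R50_OFF and 3155 ± 157 in parent. It was 0.67 higher in R50 than in parent (adjusted p = 1.58e-05). NID2, a nidogen that links laminin to collagen IV, averaged 2302 ± 128 in R50, 1558 ± 78.5 in R50_OFF and 1352 ± 54.8 in parent. It was 0.77 higher in R50 (adjusted p = 8.15e-07) and 0.20 higher in R50_OFF, where the call was lost without R50_OFF replicate 2 (adjusted p = 0.0545) or parent replicate 3 (adjusted p = 0.0589). Its relative NID1 was not tested, with 6, 9 and 6 reads in R50, 1, 0 and 1 in R50_OFF, and 1, 0 and 1 in parent.

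Among elastic fibre and microfibril genes, fibulins were higher in R50 than in parent and FBN2 was higher in both resistant lines, while FBN1 was lower in both and the latent TGF-beta binding proteins were lower in R50. Of 12 tested genes of this role, 7 were higher and 3 lower in R50 against parent, 5 higher and 2 lower in R50_OFF against parent, and 5 higher and 5 lower in R50_OFF against R50. Called in turn were 83.3%, 58.3% and 83.3%, against 63.3%, 52.0% and 59.5% of all tested genes, so the second share was close to that of all genes. FBLN1 (chr22:45502238-45601135) encodes fibulin-1, a calcium-binding glycoprotein of elastic fibres and basement membranes. It had 1614, 1431 and 1606 in R50, 628, 618 and 556 in R50_OFF, and 49.5, 69.0 and 69.4 in parent. The 3 groups lay far apart, with R50 highest. FBLN1 was 4.62 higher on the log2 scale in R50 (SE 0.122, limma adjusted p = 2.56e-10) and 3.26 higher in R50_OFF (adjusted p = 1.18e-08) than in parent, and fell by 1.37 in R50_OFF against R50 (adjusted p = 4.15e-06).

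The fibrillins, the backbone proteins of microfibrils, went opposite ways. FBN1 (chr15:48408313-48645721) had 1575, 1528 and 1454 in R50, 1364, 1416 and 1278 in R50_OFF, and 8166, 9002 and 9129 in parent. Both resistant lines stood far below parent and close to each other. FBN1 fell by 2.53 in R50 (SE 0.0588, limma adjusted p = 1.1e-10) and fell by 2.69 in R50_OFF (adjusted p = 3.33e-10). The change of −0.17 in R50_OFF against R50 (adjusted p = 0.0301) was lost in turn without R50 replicate 1 (0.0998), R50 replicate 2 (0.0505), R50_OFF replicate 1 (0.0572) or R50_OFF replicate 3 (0.115).

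FBN2 (chr5:128257909-128659185), the fibrillin that prevails in the embryo, had 274, 219 and 274 in R50, 603, 659 and 615 in R50_OFF, and 104, 120.2 and 116 in parent. It was highest in R50_OFF, with no overlap between any of the groups. FBN2 was 1.16 higher in R50 (SE 0.102, limma adjusted p = 2.52e-06) and 2.45 higher in R50_OFF (adjusted p = 2.35e-08) than in parent, and 1.29 higher in R50_OFF than in R50 (adjusted p = 1.64e-06). Per kilobase of canonical transcript, FBN2 made up 13.7 ± 1.65% of the 2 fibrillins in R50, 30.4 ± 0.898% in R50_OFF and 1.21 ± 0.0328% in parent, while their summed level was 338 ± 12.3 in R50, 373 ± 17.3 in R50_OFF and 1701 ± 102 in parent. FBN1 thus remained the more abundant of the pair in every library.

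LTBP1 (chr2:32946953-33399509) encodes a protein that tethers latent TGF-beta to microfibrils. Its values were 7050.3, 7127 and 6697 in R50, 22517, 21599 and 20988 in R50_OFF, and 34649.5, 35566 and 35033 in parent. R50 was lowest and R50_OFF lay between R50 and parent. LTBP1 fell by 2.33 in R50 (SE 0.043, limma adjusted p = 3.16e-11) and fell by 0.69 in R50_OFF (adjusted p = 3.92e-07) against parent, and was 1.64 higher in R50_OFF than in R50 (adjusted p = 6.83e-10). LTBP2, a related microfibril protein that does not bind latent TGF-beta, had 133, 145 and 158 in R50, 1089.7, 1043 and 1023 in R50_OFF, and 977, 976 and 945 in parent. R50 alone was low: LTBP2 fell by 2.73 in R50 against parent (SE 0.0702, adjusted p = 2.3e-10) and was 2.85 higher in R50_OFF than in R50 (adjusted p = 4.63e-10). The difference of 0.12 between R50_OFF and parent did not pass (adjusted p = 0.169), although the libraries did not overlap, and passed in a fit of only the 2 groups (0.0353).

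ELN (chr7:74027789-74069907) encodes elastin, the rubber-like core of elastic fibres. It had 157, 125 and 148 reads in the R50 libraries, against 1, 1 and 0 in R50_OFF and 2, 3 and 0 in parent. Deposited values were 199, 160.2 and 198 in R50, at most 1.41 in R50_OFF and at most 3.84 in parent. Elastin transcript was thus measured in R50 and lay at or below 3 reads in each of the other 6 libraries. The test called ELN higher in R50 than in parent (limma adjusted p = 4.47e-06) and lower in R50_OFF than in R50 (adjusted p = 3.1e-06). ELN entered the test through its R50 libraries alone. Its fitted log2 change depends on the pseudocount and is no bound: it was 6.12 in R50 against parent and 5.41 without parent replicate 3. Without that library ELN was also called lower in R50_OFF than in parent, by 1.33 (adjusted p = 0.0265), against a change of −0.62 with it that did not pass (adjusted p = 0.403).

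The remaining fibulins were also higher in R50. EFEMP1, which encodes fibulin-3, averaged 993 ± 113 in R50, 1328 ± 75.5 in R50_OFF and 413 ± 41.1 in parent, 1.26 higher on the log2 scale in R50 (limma adjusted p = 6e-07) and 1.69 higher in R50_OFF (1.68e-07) than in parent. FBLN5, which encodes fibulin-5, a protein needed in mice for elastic fibre assembly, averaged 117 ± 19.5 in R50, 96.5 ± 9.44 in R50_OFF and 27.8 ± 0.923 in parent, 2.02 higher in R50 and 1.75 higher in R50_OFF than in parent. EFEMP2, which encodes fibulin-4, averaged 1838 ± 256 in R50, 1357 ± 86.1 in R50_OFF and 1499.7 ± 123 in parent. Its rise of 0.29 in R50 (adjusted p = 0.0223) was lost without R50 replicate 3 (0.0744) or parent replicate 1 (0.0918). FBLN2, which encodes fibulin-2, was low, at 52.8 ± 18.5 in R50, 12.0 ± 3.63 in R50_OFF and 17.5 ± 6.85 in parent, and was 1.57 higher in R50 than in parent (adjusted p = 0.00289). MFAP2, a small microfibril-associated glycoprotein, averaged 642 ± 33.1 in R50, 1026 ± 6.84 in R50_OFF and 659 ± 56.9 in parent, and was 0.64 higher in R50_OFF than in parent (adjusted p = 2.02e-05). EMILIN1, an elastin-interface glycoprotein, lay between 8.72 and 17.4 in all libraries and passed in no comparison. MFAP5 was not tested, with 8, 4 and 4 reads in R50, 1, 2 and 1 in R50_OFF, and 0, 1 and 0 in parent.

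**Figure D4:**
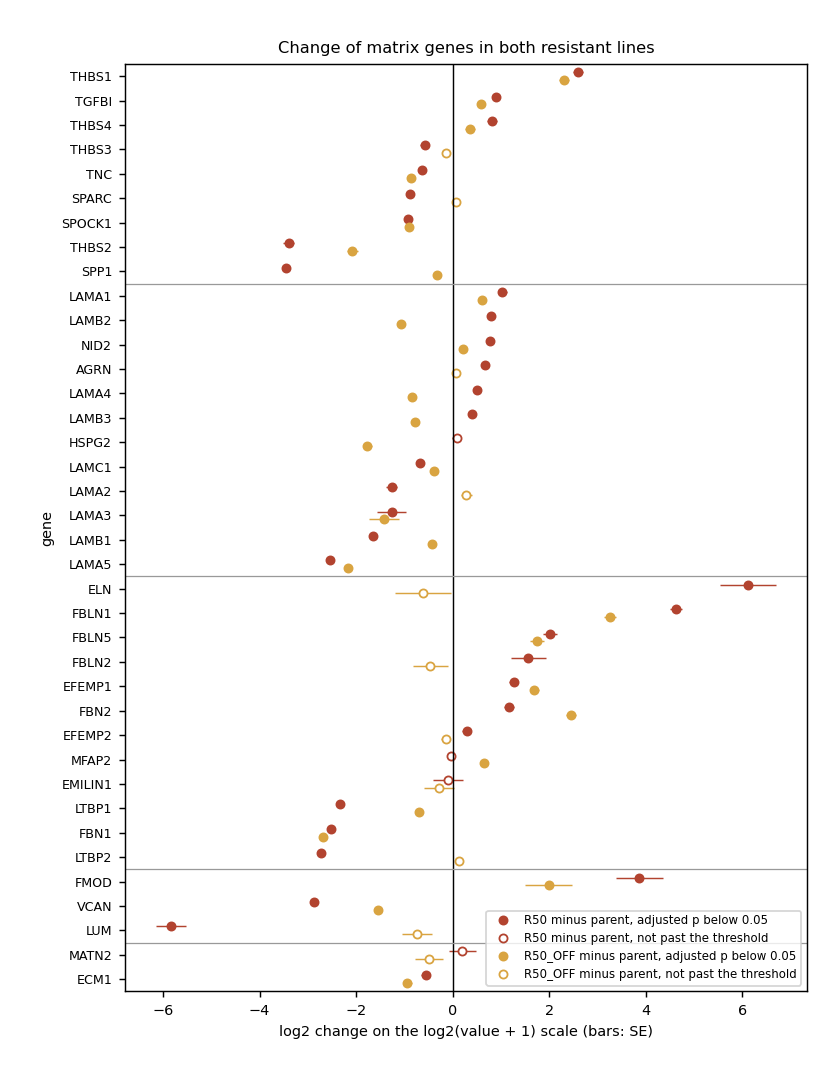
Log2 change against parent (horizontal axis, log2(value + 1) scale, bars are SE) of each tested matrix gene in R50 (red) and R50_OFF (yellow), with open points where the adjusted p was not below 0.05; both use the same 3 parent libraries. LAMA4, LAMB2 and LAMB3 lie on opposite sides of 0 in the resistant lines, and LTBP2, SPARC and LUM have filled points below 0 in R50 and open points in R50_OFF, close to 0 for LTBP2 and SPARC and at −0.74 for LUM.

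Of the proteoglycans other than heparan sulfate ones, VCAN was lower in both resistant lines, and the small leucine-rich proteoglycans LUM and FMOD differed in direction. VCAN (chr5:83471618-83582303) encodes versican, a large chondroitin sulfate proteoglycan that binds hyaluronan. It had 879, 919.5 and 767 in R50, 2266, 2181 and 1993 in R50_OFF, and 6505, 6211 and 5979 in parent. The groups were fully apart, with R50_OFF between the other groups. VCAN fell by 2.87 in R50 (SE 0.0733, limma adjusted p = 2.23e-10) and fell by 1.54 in R50_OFF (adjusted p = 5.53e-08) against parent, and was 1.33 higher in R50_OFF than in R50 (adjusted p = 1.17e-07).

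LUM (chr12:91102629-91111494) encodes lumican, which spaces collagen fibrils. It had 1, 4 and 4 reads in R50, against 134, 139 and 96 in R50_OFF and 172, 227 and 185 in parent. In deposited values these were 0.935, 3.79 and 3.95 in R50, 140.0, 121 and 105 in R50_OFF, and 186, 215 and 211 in parent. Lumican transcript was near the counting limit in R50 and well measured in the other groups. It fell by 5.84 on the log2(value + 1) scale in R50 against parent (SE 0.315, limma adjusted p = 5.18e-08) and was 5.09 higher in R50_OFF than in R50 (adjusted p = 2.65e-07). Its change of −0.74 in R50_OFF against parent did not pass (adjusted p = 0.0707), although the libraries did not overlap, and passed without R50 replicate 1 (adjusted p = 0.00206) and when traced reads were tested with voom (0.000285).

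FMOD, which encodes fibromodulin, a collagen-binding relative of lumican, went the other way. It had 32, 39 and 44 reads in R50, 11, 14 and 4 in R50_OFF, and 2, 1 and 0 in parent. The groups did not overlap, and R50 was highest. FMOD was called higher than in parent in R50 (limma adjusted p = 4.12e-05) and in R50_OFF (adjusted p = 0.00548), and lower in R50_OFF than in R50 (adjusted p = 0.00672). It passed the minimum through R50 alone, its call in R50_OFF against parent was lost after quantile normalization (0.0634) and that in R50_OFF against R50 with a pseudocount of 0.1 (0.0789). BGN and DCN, which encode biglycan and decorin, were not tested. BGN had 23, 33 and 32 reads in R50, 4, 0 and 1 in R50_OFF, and 5, 15 and 7 in parent. DCN had 0, 2 and 0 in R50, 3, 0 and 0 in R50_OFF, and 2, 6 and 6 in parent.

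Of the other glycoproteins, ECM1, which binds perlecan and other matrix proteins, had 854, 703 and 903 in R50, 584, 655 and 645 in R50_OFF, and 1108, 1259 and 1251 in parent. All groups were apart, and ECM1 fell by 0.56 in R50 (limma adjusted p = 0.000363) and fell by 0.94 in R50_OFF (adjusted p = 1.37e-05) against parent. MATN2, a matrilin adaptor protein, averaged 42.1 ± 3.69 in R50, 27.2 ± 10.7 in R50_OFF and 36.6 ± 5.52 in parent and passed in no comparison. Its change of −0.69 in R50_OFF against R50 (limma adjusted p = 0.0548) passed without R50_OFF replicate 3 (0.0207) and with a pseudocount of 8 (0.0455). VTN, which encodes vitronectin, had at most 7 reads in any library and was not tested.

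U87MG carries chromosome gains and losses, so the median change of each chromosome's tested genes was compared with the matrix genes it holds, which lie on 16 chromosomes. Those medians ranged from −0.34 to 0.318 on the log2 scale in R50 against parent, from −0.091 to 0.197 in R50_OFF against parent and from −0.313 to 0.317 in R50_OFF against R50. After subtraction of the chromosome's median, all 34 called genes in R50 against parent, all 27 in R50_OFF against parent and all 33 in R50_OFF against R50 kept their direction. Subtraction left less than a share of 0.5 of the log2 change in 4 of the calls of the 3 comparisons. LAMA4 kept 0.19 of its log2 change of 0.50 in R50 against parent, where the median of chromosome 6 was 0.318, and −1.03 of −1.34 in R50_OFF against R50. NID2 kept 0.013 of 0.20 in R50_OFF against parent, EFEMP1 kept 0.11 of 0.42 and FBN1 kept −0.080 of −0.17 in R50_OFF against R50. The part of the chromosome-wide shift in these changes was not tested.

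Genes that act on the same matrix were counted from 4 further lists, to be read against the share of all tested genes: 31.6% higher and 31.7% lower in R50 against parent, 26.3% higher and 25.7% lower in R50_OFF against parent, and 30.2% higher and 29.3% lower in R50_OFF against R50. Of 28 tested core matrix genes outside the set, 13 were higher and 12 lower in R50 against parent, and 5 were higher and 13 lower in R50_OFF against parent. HMCN1, which encodes the basement membrane protein hemicentin-1, averaged 44.4 ± 2.80 in R50, 104 ± 9.06 in R50_OFF and 1210.4 ± 42.0 in parent, with log2 changes of −4.74 in R50 and −3.53 in R50_OFF (limma adjusted p = 3.92e-11 and 1.16e-09). EMILIN2, an EMILIN1 relative, averaged 56.3 ± 12.9 in R50, 57.7 ± 8.47 in R50_OFF and 1.32 ± 0.551 in parent. CCN5, a matricellular protein, was at 155 ± 15.9 in R50, 1.67 ± 0.981 in R50_OFF and 1.57 ± 0.444 in parent, so like ELN it was measured well in R50 alone. IGFBP7, an insulin-like growth factor binding protein of vessel matrix, averaged 16.1 ± 10.5 in R50, 169 ± 24.4 in R50_OFF and 397 ± 38.5 in parent. Its fall in R50_OFF (adjusted p = 0.0142) was lost without R50_OFF replicate 1 (0.0527). ESM1, the endothelial proteoglycan endocan, averaged 2.14 ± 0.594 in R50, 97.8 ± 27.9 in R50_OFF and 4.18 ± 2.70 in parent, and CCN4 was lower in both resistant lines.

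Of 8 tested crosslinking and elastic assembly enzymes, 3 were higher and 5 lower in R50 against parent, and 2 were higher and 6 lower in R50_OFF against parent. LOX, the lysyl oxidase that crosslinks elastin and collagen, averaged 6675 ± 504 in R50, 8140.3 ± 480.2 in R50_OFF and 3274 ± 292 in parent, 1.03 higher on the log2 scale in R50 and 1.32 higher in R50_OFF than in parent. LOXL3, a LOX paralog, averaged 178 ± 26.6 in R50, 225 ± 10.7 in R50_OFF and 1169.6 ± 80.4 in parent, with log2 changes of −2.72 in R50 and −2.37 in R50_OFF. PCOLCE, an enhancer of procollagen cleavage, TGM2, a transglutaminase, and FAM20C, a kinase of secreted proteins such as osteopontin, were lower in both resistant lines, whereas BMP1, a procollagen proteinase, was higher in both.

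Of 32 tested glycosaminoglycan synthesis and sulfation genes, 4 (12.5%) were higher and 21 (65.6%) lower in R50 against parent, and 6 (18.8%) were higher and 15 (46.9%) lower in R50_OFF against parent. The lists were chosen with earlier results known, and these shares were not tested. HAS2, a hyaluronan synthase, averaged 7.96 ± 2.86 in R50, 57.5 ± 4.54 in R50_OFF and 212 ± 21.2 in parent, with log2 changes of −4.62 in R50 and −1.86 in R50_OFF. HAS1 averaged 240.3 ± 26.8 in R50, 93.8 ± 5.72 in R50_OFF and 967 ± 25.5 in parent. DSEL, a dermatan sulfate epimerase, was lower in both. SULF2, which removes sulfates from heparan sulfate, ran against them, at 211 ± 17.1 in R50, 135 ± 16.3 in R50_OFF and 1.93 ± 2.02 in parent, and its change on the log2 scale was 6.46 in R50 and 5.81 in R50_OFF. Without parent replicate 3 these were 5.83 in R50 and 5.18 in R50_OFF. Over all alternatives the SULF2 changes ranged from 4.5 to 7.8 in R50 and from 3.9 to 7.2 in R50_OFF. With parent values that low, their size depends on the pseudocount. CHST15, which oversulfates chondroitin sulfate, averaged 15.9 ± 2.39 in R50 and 2.13 ± 0.648 in R50_OFF and was at 0 in all parent libraries. Its call as higher in R50_OFF than in parent (limma adjusted p = 0.0142) was lost with a pseudocount of 8 (0.150) and after quantile normalization (0.103).

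Of 19 tested matrix receptors other than integrins, 8 were higher and 8 lower in R50 against parent, and 5 were higher and 7 lower in R50_OFF against parent. SDC3, the heparan sulfate proteoglycan syndecan-3, averaged 220.4 ± 15.5 in R50, 147 ± 4.20 in R50_OFF and 7.46 ± 1.09 in parent, 4.72 higher on the log2 scale in R50 (limma adjusted p = 4.62e-10) and 4.14 higher in R50_OFF (4.82e-09) than in parent. CD36, a thrombospondin-1 receptor, averaged 25.8 ± 4.09 in R50, 0.330 ± 0.572 in R50_OFF and 0.411 ± 0.711 in parent. LRP1, an endocytic receptor for thrombospondins, averaged 3541 ± 290 in R50, 4149 ± 370 in R50_OFF and 13211 ± 191 in parent. BCAM, a receptor for laminin alpha-5, averaged 5.46 ± 2.06 in R50, 2.16 ± 1.60 in R50_OFF and 50.2 ± 1.90 in parent, lower in both resistant lines as LAMA5 was. DDR2, a collagen receptor, was lower in R50_OFF than in parent, by 0.74 (adjusted p = 2.23e-06), and did not pass in R50. In R50_OFF against R50, 12 core matrix genes of the list were higher and 12 lower, 5 enzymes of crosslinking were higher and 3 lower, 15 glycosaminoglycan genes were higher and 6 lower, and 7 receptors were higher and 8 lower. Of the genes named from these lists, CCN5, CHST15 and CD36 passed the minimum through R50 alone, ESM1 through R50_OFF alone and BCAM through parent alone. They are part of the counts, and were low in the other groups.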

How the data were processed

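The authors deposited 1 table of 33264 genes in 9 libraries, a signal on a linear scale. Per the file headers, it is normalized and is given per kilobase of the gene's median transcript length. Within each gene all values were whole multiples of 1 read's worth, which a library factor and that length fix, for 100.0% of the genes (largest distance from a whole number 1.4e-09, tolerance 1e-05). Those multiples are called traced reads here. Per the submitters' processing notes, bcl2fastq 2.17.1.14 and the build hg38 were used. The aligner, the counter and its strand setting were not given in the sources used here, so reads of a gene and an antisense partner cannot be told apart. Per the labels' protocols, reads were single ends of 50 bases. Groups and replicate numbers came from the sample titles. Of the gene IDs, 33137 matched GENCODE version 44, which gave coordinates counted from 1 and canonical transcript lengths.

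The 16456 genes that reached a value of 10 in 3 or more libraries were tested with limma 3.58.1 (R 4.3.3). The fit took all 9 libraries, log2(value + 1) and a trended empirical Bayes step. The tests were two-sided, with Benjamini-Hochberg adjustment over those genes and a threshold of 0.05. Because of the pseudocount of 1, log2 changes of low genes are understated. SDs are of values and SEs of log2 changes. The fit was also run on simulated data with a uniform spread and few changed genes. These data differ from that in both respects, so that run does not show how the fit performs here. A count of 0 allows up to 3 reads per library, which covers counting error only. The tests were repeated without a filter, with a minimum of 50, with a pseudocount of 0.1 or 8, and with quantile normalization. Further repeats fitted only the 2 groups compared, added the replicate block, left out each library in turn, or used voom on traced reads, which was chosen after seeing the data.

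The matrix genes and the lists were chosen with earlier results of these data known. Values of each library are given for the genes past the threshold with the largest change in their role, up to 6 in the roles of 10 or more genes and up to 3 in the others, and for the highest in level. LAMA4 and LAMB3 and the genes with few reads were added after their values were seen. From each further list up to 4 genes with the largest change in each comparison with parent were named.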

Additional observations from a re-analysis of the deposited data

Results flagged for a closer look

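The 3 laminin chains LAMB2, LAMA4 and LAMB3 moved in opposite directions in the resistant lines against parent, each past limma's adjusted p of 0.05 in both comparisons and in their difference. LAMB2 was 0.80 higher on the log2 scale in R50 with −1.07 in R50_OFF, and R50_OFF minus R50 was −1.87 (adjusted p = 2.92e-08). LAMA4 was 0.50 higher in R50, with −0.84 in R50_OFF, and R50_OFF minus R50 was −1.34 (adjusted p = 2.26e-08). Less the median of chromosome 6 in each comparison, the LAMA4 changes were 0.19 in R50 and −0.80 in R50_OFF. LAMB3 was 0.40 higher in R50, with −0.79 in R50_OFF, and R50_OFF minus R50 was −1.19 (adjusted p = 1.15e-07). In each of these genes all 3 R50 libraries lay above parent and all 3 R50_OFF libraries below it.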

How the results depend on the processing

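Of 94 calls among the matrix genes (3 comparisons of 38 genes), 81 held under all 17 alternatives. Another 5, of LAMA3, FBLN2 and FMOD, held under the 16 that could be run, since only 33 of the genes were tested at a minimum of 50. No call changed direction. The 8 lost somewhere were EFEMP2 in R50 against parent, FMOD, NID2 and THBS4 in R50_OFF against parent, and FBN1, FMOD, LAMC1 and THBS1 in R50_OFF against R50. Gained somewhere were ELN, LAMA2 (under 4 alternatives), LTBP2 and LUM (under 4) in R50_OFF against parent, and FBLN5 (0.0391 without R50 replicate 2) and MATN2 in R50_OFF against R50. The count of called matrix genes was 34 of 38 in R50 against parent, 27 in R50_OFF against parent and 33 in R50_OFF against R50. Leaving out each library gave 33 to 34, 26 to 28 and 31 to 33, and 9591 to 10519, 7407 to 9209 and 8846 to 9615 genes over all. The planned quasi-likelihood count test was not run, because the read step differs by gene.

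The labels do not say that the same replicate numbers pair libraries. Deviations of same-numbered libraries correlated at −0.021 to 0.1 over 9 pairs, and 6 of 9 libraries correlated best with their own number. These values do not settle whether the libraries are paired. The fit with the replicate block called 34, 27 and 34 matrix genes, the last with MATN2 (adjusted p = 0.0294) added, and 10653, 8811 and 10046 genes in all.

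Changes that did not pass the test and turned direction were small. After quantile normalization these were LAMA3 (0.076), EMILIN1 (0.080) and SPOCK1 (−0.095) in R50_OFF against R50, and MATN2 (−0.12), MFAP2 (0.0061) and DDR2 (0.10) in R50 against parent. With a pseudocount of 8, CCN5 in R50_OFF against parent was at 0.011. Leaving out 1 library at a time, LAMA3 ranged from −0.41 to 0.092, SPOCK1 from −0.0089 to 0.072 and EMILIN2 from −0.097 to 0.22 in R50_OFF against R50. EMILIN1 ranged from −0.26 to 0.12, MFAP2 from −0.087 to 0.032 and DDR2 from −0.093 to 0.027 in R50 against parent, and CCN5 from −0.26 to 0.29 and CD36 from −0.39 to 0.33 in R50_OFF against parent. The cause was not tested. ELN, FMOD, LUM, LAMA3, FBLN2 and the untested genes rest on few reads in at least 1 group, so depth limits their fold changes.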
